A study of Homo sapiens with 18 samples.

Results

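The genes described here make and fill the autophagosome, and they are 10 of the 57736 Ensembl genes counted in A1847 cells, an established human ovarian cancer line. They were chosen by symbol, as WIPI1, the conjugation proteins ATG5, ATG12 and ATG16L1, the ATG8 family members MAP1LC3B and GABARAPL1, the cargo receptor SQSTM1, and the ER-phagy receptors RETREG1, CCPG1 and TEX264. All of them were found in the table, each as a single row. The series had 6 groups of 3 libraries. Cells labelled WT, cells labelled koCARM1 and cells labelled shXBP1 were each given vehicle (ctr) or tunicamycin (TM) at 5 μg/ml for 8 h. CARM1, an arginine methyltransferase that acts as a transcriptional coactivator, was targeted in koCARM1 cells with a lentiviral CRISPR vector carrying 1 guide. In shXBP1 cells a lentiviral short hairpin RNA targeted XBP1, the transcription factor made from mRNA that the ER stress sensor IRE1α splices. Whether the knockout was 1 clone or a pool, and whether WT cells carried a control vector, are not given in the sources used here, and both modified genotypes were compared with the same WT libraries.

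In autophagy a double membrane, the phagophore, closes around its cargo to form an autophagosome that fuses with a lysosome. ULK1 and the class III PI3-kinase start it, WIPI proteins read the lipid PI3P on the growing membrane, and the ATG12–ATG5–ATG16L1 complex attaches ATG8 proteins to it. Receptors such as SQSTM1 bind cargo and ATG8 proteins at once, and in ER-phagy membrane receptors of the endoplasmic reticulum (ER) deliver parts of the ER itself in the same way. Tunicamycin blocks N-linked glycosylation, so that misfolded proteins gather in the ER and the unfolded protein response begins. ATF4 and DDIT3 (CHOP), transcription factors of the PERK branch of that response, are known activators of autophagy genes.

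Library totals ran from 9367462 to 13917212 counts, and 17317 genes passed the filter on low counts. CARM1, whose counts do not show the edited site, was at 160.0 to 165 CPM (counts scaled to a common library size) in WT cells with vehicle and at 71.6 to 77.7 in koCARM1 cells with vehicle, where its transcript stayed detectable. XBP1 was at 43.2 to 51.1 CPM in WT and at 24.1 to 26.5 in shXBP1 cells with vehicle. With tunicamycin it was at 148 to 153 in WT and at 69.0 to 73.7 in shXBP1 cells. The knockdown was thus partial, and XBP1 in treated shXBP1 cells lay above that in WT cells with vehicle. The 6 koCARM1 libraries stood apart from the 12 others. Across genes, log2 CPM correlated at r = 0.730 to 0.775 between them and the other libraries, and at 0.961 to 0.987 between WT and shXBP1 libraries of different groups. Of 8 epithelial ovarian markers, 7 had counts in koCARM1 cells, and their summed level was 2679 to 2773 CPM with vehicle and 2252 to 2356 with tunicamycin. In WT cells the sum was 310 to 332 CPM with vehicle (6 markers with counts) and 460 to 486 with tunicamycin (7 with counts), and in shXBP1 cells it was 130 to 144 and 199 to 215 (6 with counts in each). PAX8, the lineage factor of most serous ovarian cancers, was at 0 to 0.166 CPM in the 12 WT and shXBP1 libraries and at 39.9 to 65.2 in the koCARM1 libraries, and MUC16 (CA125) had no count in any library. Of 7 markers of fibroblasts, muscle, endothelium and leukocytes, the sum was 685 to 728 CPM (WT, vehicle), 508 to 584 (WT, tunicamycin), 470 to 507 and 195 to 221 (koCARM1), and 481 to 501 and 391 to 427 (shXBP1). They had counts for 6, 5, 6, 6, 5 and 5 markers in the same order, and the T cell gene CD3E was at 0 throughout. The markers of this list differed in opposite directions. The collagen gene COL3A1 was at 139 to 228 CPM in the 12 WT and shXBP1 libraries and at 0 to 0.794 in koCARM1. The muscle gene ACTA2 was likewise lower in koCARM1, at 243 to 490 in the 12 libraries and at 4.05 to 6.62 in koCARM1. In contrast, COL1A1 was at 4.47 to 17.3 and at 183 to 494, and the macrophage gene CD68 at 0 to 0.851 and at 4.92 to 7.07. The labels give A1847 for every group, and whether the koCARM1 libraries come from the same line as the others cannot be told from these values. Every value that sets koCARM1 beside WT below carries this difference, and its part in them was not tested. Comparisons within a genotype, and those of shXBP1 with WT, were fitted without the koCARM1 libraries or within them alone.

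The promoters of the 4 members with the largest responses to tunicamycin in any genotype are shown for reference. The sequences are the 250 bases before the RefSeq start of the gene on GRCh38.p14, read 5′ to 3′ on the strand of the gene. Capitals mark matches to the motifs that were searched on both strands.
WIPI1, chr17:68457497-68457746, minus strand: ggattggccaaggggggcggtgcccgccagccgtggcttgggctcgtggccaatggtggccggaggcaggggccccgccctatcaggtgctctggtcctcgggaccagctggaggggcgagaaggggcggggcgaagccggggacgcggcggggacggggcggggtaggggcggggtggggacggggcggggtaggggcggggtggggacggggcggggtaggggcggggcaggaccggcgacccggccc
GABARAPL1, chr12:10212627-10212876, plus strand: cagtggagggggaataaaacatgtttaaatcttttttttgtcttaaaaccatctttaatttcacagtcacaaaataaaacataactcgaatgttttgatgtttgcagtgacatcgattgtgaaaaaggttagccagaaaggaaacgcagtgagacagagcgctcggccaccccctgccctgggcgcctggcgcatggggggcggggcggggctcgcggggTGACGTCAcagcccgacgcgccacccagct
CCPG1, chr15:55408360-55408609, minus strand: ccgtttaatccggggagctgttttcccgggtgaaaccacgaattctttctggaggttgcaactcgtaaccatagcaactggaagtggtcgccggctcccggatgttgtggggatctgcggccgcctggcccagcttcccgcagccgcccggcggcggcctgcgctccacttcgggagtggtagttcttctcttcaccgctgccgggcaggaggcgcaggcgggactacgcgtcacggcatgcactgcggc
MAP1LC3B, chr16:87392086-87392335, plus strand: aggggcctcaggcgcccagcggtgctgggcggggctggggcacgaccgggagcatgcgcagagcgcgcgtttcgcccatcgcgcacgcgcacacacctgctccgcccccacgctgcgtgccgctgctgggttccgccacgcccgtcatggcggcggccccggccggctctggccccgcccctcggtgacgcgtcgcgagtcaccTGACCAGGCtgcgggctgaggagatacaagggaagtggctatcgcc
Windows of 300 bases (these 250 and the 50 after the start) were searched, 14 for the 10 members and 35116 in all. The C/EBP-ATF response element read by ATF4 and CHOP (TGATGNAAN, in 3.61% of all windows), the unfolded protein response element (TGACGTGG, 0.729%), the ER stress response element ERSE (0.0769%) and the core of the CLEAR element read by TFEB (TCACGTGA, 0.98%) were found in 0 of the 14. The antioxidant response element (TGACNNNGC, 13.3% of all windows) was found in the MAP1LC3B window from base −46 and in 1 of the windows of RETREG1. The core attributed to spliced XBP1 in the study (ACGTCA, 7.98% of all windows), which was added to the search after the data had been seen, was found only in the GABARAPL1 window, where it reads on both strands and overlaps itself around base −30. These are descriptions of letters in short windows, and binding was not examined here.

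Tunicamycin raised 7 of the 9 members that had counts in WT cells and lowered 1, where 41.9% of all genes tested were called, 22.0% higher and 19.9% lower (edgeR's quasi-likelihood test at a false discovery rate, FDR, of 5%; adjusted p below are from this test). CCPG1 rose the most, WIPI1 and GABARAPL1 followed, and SQSTM1, ATG5, MAP1LC3B and ATG12 rose by less than 1.5-fold. TEX264 fell. In koCARM1 cells 6 of 9 members were higher (20.6% of all genes) and 1 lower (18.8%), with 39.5% called in all. In shXBP1 cells 6 were higher (19.2%) and 2 lower (19.0%), with 38.3% called in all. The median log2 fold change over the same 9 members was 0.48 in WT, 0.36 in koCARM1 and 0.36 in shXBP1 cells, beside 0 over all genes tested in each. As the filter used all 18 libraries, the genes tested include some without counts in the libraries compared, such as RETREG1 in WT and shXBP1 cells. Such genes could not be called, which lowers the shares over all genes, while all 9 members had counts. The p-values measure the spread between these libraries, since the labels do not say that replicates were separate cultures. In bulk RNA, fewer cells with a transcript and less of it per cell cannot be told apart.

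**Figure D1:**
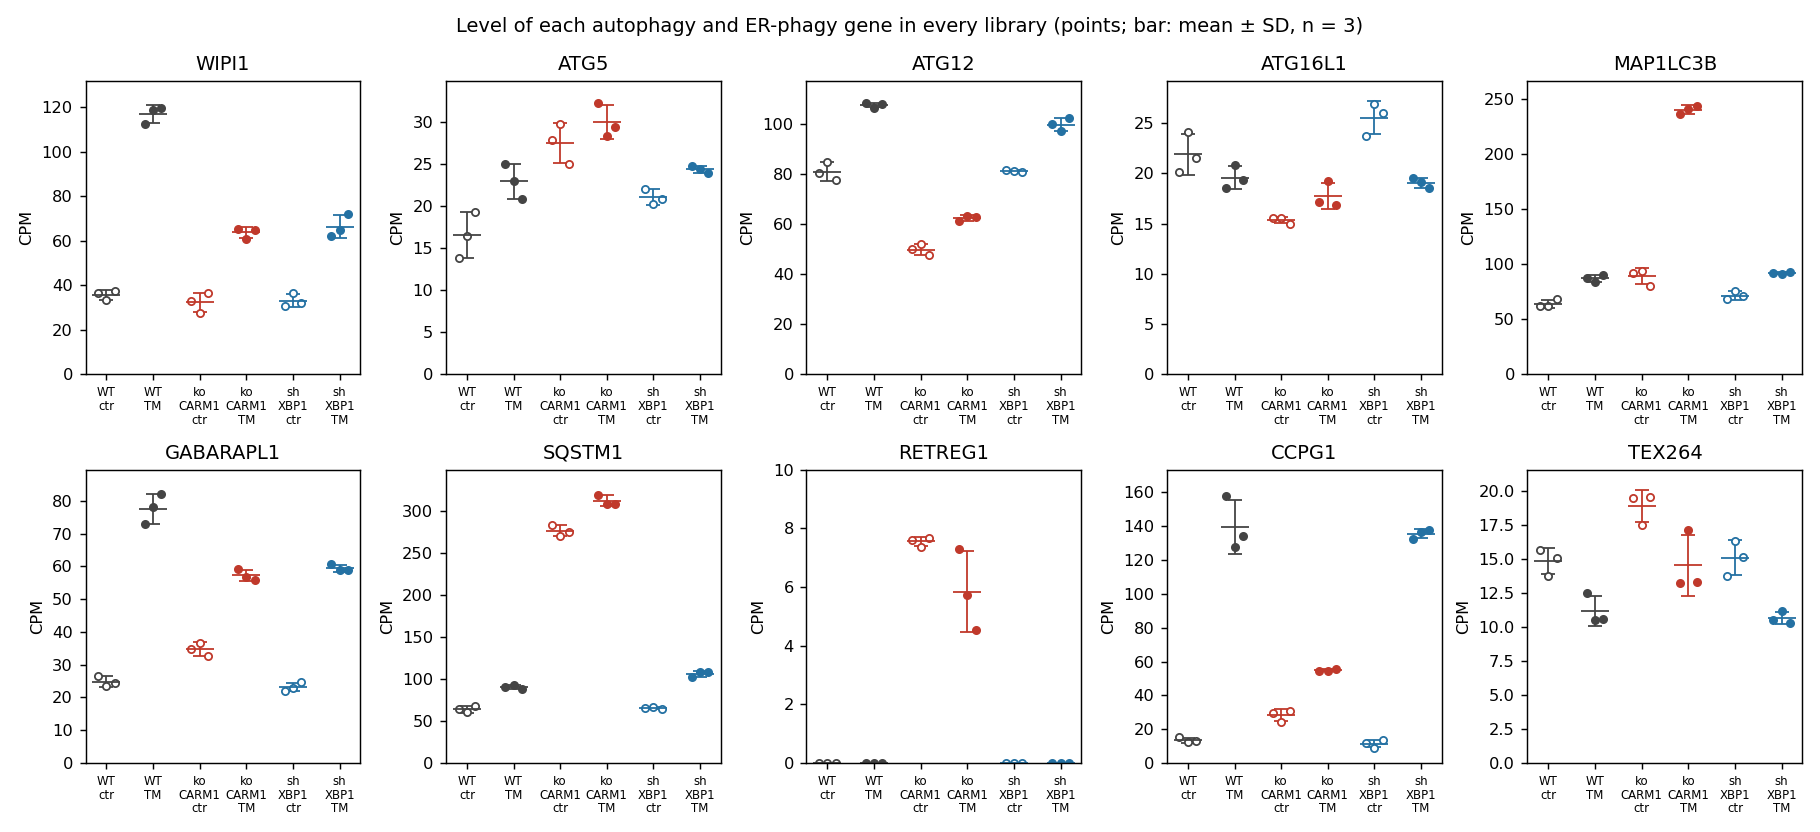
Level of the 10 members in each of the 18 libraries, in CPM on linear axes that start at 0, with a panel for each gene. Points are libraries, open with vehicle (ctr) and filled with tunicamycin (TM), and bars give the mean ± SD (n = 3). CCPG1 was at 9.15 to 15.2 CPM with vehicle in WT and shXBP1 cells and at 128 to 158 with tunicamycin, and RETREG1 was at 0 in all 12 of those libraries.

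WIPI1 (ENSG00000070540, chromosome 17, 66417089 to 66453654 on GRCh37), the PI3P-binding protein of the phagophore, rose with tunicamycin in all genotypes, and less in koCARM1 and shXBP1 than in WT cells. It stood at 36.6, 33.3 and 37.2 CPM in WT cells with vehicle and at 112, 119 and 119 with tunicamycin. In koCARM1 cells it was at 32.8, 27.6 and 36.4 with vehicle and 65.5, 60.7 and 64.8 with tunicamycin, and in shXBP1 cells at 30.7, 36.4 and 32.2 with vehicle and 62.3, 64.6 and 72.01 with tunicamycin. With tunicamycin every WT library lay above every library of the other genotypes, while with vehicle the 3 genotypes overlapped. The log2 fold change with tunicamycin was 1.72 in WT (standard error, SE, 0.0685, adjusted p = 7.11e-12), 1.03 in koCARM1 (SE 0.0793, adjusted p = 5.81e-10) and 0.99 in shXBP1 cells (SE 0.0797, adjusted p = 9.17e-08). The response minus that of WT, tested as the interaction, was −0.72 on the log2 scale in koCARM1 cells (SE 0.110, adjusted p = 6.66e-05) and −0.72 in shXBP1 cells (SE 0.106, adjusted p = 0.000561). Under tunicamycin the log2 difference in level from WT was −0.87 in koCARM1 (adjusted p = 1.37e-09) and −0.82 in shXBP1 cells (adjusted p = 3.44e-07). With vehicle the differences were −0.20 (95% interval −0.41 to 0.01) and −0.12 (−0.30 to 0.07), and neither passed the threshold. Without replicate 3 of koCARM1 with vehicle the first of them did pass it, at −0.29 (adjusted p = 0.0241). ARSG, whose exons overlap on the opposite strand, averaged 2.30 to 6.97 CPM over the 6 groups.

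ATG12, the ubiquitin-like protein that is coupled to ATG5, was lower in koCARM1 cells in both treatments and rose with tunicamycin in all 3 genotypes. ATG12 (ENSG00000145782, chromosome 5, 115163897 to 115177534) was at 77.5 to 85.02 CPM in WT with vehicle and at 107 to 108 with tunicamycin. It was at 47.9 to 51.9 with vehicle and 61.3 to 63.5 with tunicamycin in koCARM1 cells, and at 80.8 to 81.6 with vehicle and 97.1 to 102 with tunicamycin in shXBP1 cells. The highest koCARM1 library, with tunicamycin, was below the lowest WT or shXBP1 library with vehicle. The tunicamycin log2 fold changes were 0.42 (SE 0.0598), 0.36 (SE 0.0566) and 0.29 (SE 0.0517) in WT, koCARM1 and shXBP1 cells (adjusted p = 2.4e-05, 2.24e-05 and 0.000333). Between these responses no difference passed the threshold, with intervals of −0.24 to 0.08 for koCARM1 and −0.28 to 0.03 for shXBP1 against WT. The koCARM1 level differed from WT by −0.74 with vehicle (adjusted p = 3.07e-08) and −0.78 with tunicamycin (adjusted p = 2.28e-09). AP3S1, whose exons overlap on the opposite strand, averaged 60.9 to 76.9 CPM over the 6 groups.

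ATG5 (ENSG00000057663, chromosome 6, 106493298 to 106773666), the protein to which ATG12 is joined, was higher in koCARM1 than in WT cells. It was at 16.5 ± 2.72 (SD, n = 3) CPM in WT with vehicle and 22.9 ± 2.11 (SD, n = 3) with tunicamycin, at 27.5 ± 2.38 (SD, n = 3) and 30.00 ± 2.03 (SD, n = 3) in koCARM1, and at 21.05 ± 0.936 (SD, n = 3) and 24.4 ± 0.420 (SD, n = 3) in shXBP1 cells. In WT it rose by 0.48 on the log2 scale (SE 0.122, adjusted p = 0.00434), with no overlap between treatments. In koCARM1 (0.15, interval −0.02 to 0.33) and shXBP1 cells (0.20, interval 0.02 to 0.39) the change did not pass the threshold, and neither interaction did (adjusted p = 0.12 and 0.466). The level in koCARM1 was higher than in WT by 0.69 with vehicle (adjusted p = 6.75e-05) and 0.39 with tunicamycin (adjusted p = 0.00107). In shXBP1 cells with vehicle the difference of 0.34 missed the threshold (adjusted p = 0.118), and it passed without replicate 3 of WT with vehicle, at 0.47 (adjusted p = 0.0217).

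ATG16L1 (ENSG00000085978, chromosome 2, 234118697 to 234204320), the subunit that brings the conjugation complex to the membrane, fell with tunicamycin in shXBP1 cells. Its range there was 23.7 to 26.9 CPM with vehicle and 18.5 to 19.5 with tunicamycin, a log2 fold change of −0.43 (SE 0.0896, adjusted p = 0.0012). In WT it was at 20.1 to 24.1 and 18.5 to 20.8, which overlap (−0.15, interval −0.37 to 0.06). In koCARM1 cells it was at 15.00 to 15.6 with vehicle and 16.8 to 19.2 with tunicamycin (0.24, adjusted p = 0.059). The shXBP1 response did not differ from that of WT beyond the threshold (interaction −0.27, adjusted p = 0.366). Nor did the koCARM1 response (0.37, adjusted p = 0.0559), although 9 of 18 alternatives put it past the threshold, among them those without replicate 1 or 3 of WT with vehicle (0.50 and 0.45) and without replicate 1, 2 or 3 of WT with tunicamycin (0.41, 0.48 and 0.44). With vehicle the koCARM1 level was lower than WT, with a log2 difference of −0.55 (adjusted p = 0.000138).

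MAP1LC3B (LC3B; ENSG00000140941, chromosome 16, 87417559 to 87438385), the ATG8 protein most used as an autophagosome marker, showed the largest response to tunicamycin of the 9 members in koCARM1 cells. It was at 62.2, 61.96 and 68.04 CPM in WT cells with vehicle and at 87.2, 83.5 and 90.6 with tunicamycin. In koCARM1 cells the levels were 91.9, 94.3 and 80.6 with vehicle and 236, 241 and 244 with tunicamycin. In shXBP1 cells they were 68.1, 75.6 and 70.8 with vehicle and 92.2, 91.05 and 93.3 with tunicamycin. The koCARM1 libraries with tunicamycin stood far above all others, of which the highest was at 94.3 CPM. The rise was 2.76-fold in koCARM1 (log2 fold change 1.46, SE 0.0465, adjusted p = 1.08e-16), 1.37-fold in WT (0.45, SE 0.0662, adjusted p = 3.23e-05) and 1.28-fold in shXBP1 cells (0.36, SE 0.0563, adjusted p = 0.000103). The koCARM1 response exceeded that of WT by 0.99 on the log2 scale (SE 0.0833, adjusted p = 2.93e-08), and the shXBP1 response differed from it by −0.09 (interval −0.26 to 0.09). FBXO31, whose exons overlap on the opposite strand, averaged 15.8 to 26.5 CPM over the 6 groups, and the near copy MAP1LC3B2 had 5 counts in all.

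GABARAPL1 (ENSG00000139112, chromosome 12, 10365057 to 10375727), an ATG8 protein of the other subfamily, rose with tunicamycin in all genotypes, and less in koCARM1 than in WT cells. Its levels were 26.6, 23.4 and 24.5 CPM in WT with vehicle and 72.9, 77.99 and 81.96 with tunicamycin. They were 34.9, 36.7 and 32.6 with vehicle and 59.2, 56.7 and 55.9 with tunicamycin in koCARM1, and 22.1, 22.8 and 24.6 with vehicle and 60.7, 58.7 and 58.9 with tunicamycin in shXBP1 cells. With tunicamycin the WT libraries were the highest, and with vehicle the koCARM1 libraries were. The log2 fold change was 1.66 in WT (SE 0.0788, adjusted p = 6.17e-11), 0.75 in koCARM1 (SE 0.0645, adjusted p = 3.45e-09) and 1.35 in shXBP1 cells (SE 0.0713, adjusted p = 8e-10). The difference of the koCARM1 response from WT was −0.92 (SE 0.101, adjusted p = 1.02e-06). For shXBP1 it was −0.30, which did not pass over all genes (adjusted p = 0.172), while the level under tunicamycin was lower than in WT, with a log2 difference of −0.38 (SE 0.0636, adjusted p = 0.000653). The log2 difference of koCARM1 from WT was 0.44 with vehicle (adjusted p = 0.000225) and −0.43 with tunicamycin (adjusted p = 1.33e-05). The ACGTCA core in the promoter window of GABARAPL1, shown above, is found in 7.98% of all windows, and its part in these levels was not tested.

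SQSTM1 (p62; ENSG00000161011, chromosome 5, 179233398 to 179265078), the receptor for ubiquitinated cargo that is itself degraded with it, was the member with the largest difference between koCARM1 and WT among those with counts in both. It was at 63.9, 60.4 and 68.4 CPM in WT with vehicle and 90.7, 92.5 and 88.8 with tunicamycin. In koCARM1 cells it was at 284, 271 and 276 with vehicle and 319.8, 309 and 309 with tunicamycin. In shXBP1 cells it was at 65.4, 67.2 and 64.8 with vehicle and 102, 109 and 109 with tunicamycin. The lowest koCARM1 library, at 271 CPM, lay above the highest of the other 12, at 109. The koCARM1 level was 4.17-fold that of WT with vehicle (log2 fold change 2.06, SE 0.0548, adjusted p = 2.1e-14) and 3.46-fold with tunicamycin (1.79, SE 0.0449, adjusted p = 2.66e-14). Tunicamycin raised SQSTM1 by 0.51 in WT (adjusted p = 9e-06), 0.21 in koCARM1 (adjusted p = 5.13e-05) and 0.69 in shXBP1 cells (adjusted p = 7.01e-08). The koCARM1 response was smaller than that of WT, with an interaction of −0.32 (SE 0.0693, adjusted p = 0.0021). Under tunicamycin shXBP1 cells were 0.23 higher than WT (adjusted p = 0.00859), which missed the threshold without replicate 3 of WT with tunicamycin (0.22, adjusted p = 0.053). MGAT4B, a glycosyltransferase gene whose exons overlap on the opposite strand, averaged 65.3 and 20.8 CPM in WT, 184 and 75.9 in koCARM1, and 59.2 and 17.9 in shXBP1 cells with vehicle and tunicamycin. Whether the counting used strand is not given in the sources used here. Reads of this overlap, and of the opposite-strand overlaps named for other members, therefore cannot be told apart.

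CCPG1 (ENSG00000260916, chromosome 15, 55632230 to 55700708), an ER-phagy receptor known as a target of the unfolded protein response, had the largest response of all members in WT and shXBP1 cells. Its levels were 15.2, 12.7 and 12.8 CPM in WT with vehicle and 158, 128 and 134 with tunicamycin. They were 11.8, 9.15 and 13.6 with vehicle and 132, 137 and 138 with tunicamycin in shXBP1 cells. In koCARM1 cells they were 29.4, 24.4 and 30.9 with vehicle and 54.6, 54.4 and 55.6 with tunicamycin. With vehicle koCARM1 cells were above the other genotypes, and with tunicamycin they were below them, with no overlap in either case. The rise was 10.4-fold in WT (log2 fold change 3.38, SE 0.0972, adjusted p = 1.18e-13), 11.7-fold in shXBP1 (3.55, SE 0.0940, adjusted p = 2.51e-13) and 2.00-fold in koCARM1 cells (1.00, SE 0.0784, adjusted p = 7.23e-10). The koCARM1 response was smaller than that of WT, with an interaction of −2.40 on the log2 scale (SE 0.136, adjusted p = 1.71e-10). The shXBP1 response differed from WT by 0.17, with an interval of −0.15 to 0.49 and adjusted p = 0.698. The level in koCARM1 differed from WT by 1.01 with vehicle (adjusted p = 8.1e-07) and by −1.34 with tunicamycin (adjusted p = 2.19e-10). The read-through gene DNAAF4-CCPG1 shares exons on the same strand and held 901 counts over all libraries beside 14301 for CCPG1. Its mean level with vehicle and tunicamycin was 2.97 and 11.1 CPM in WT, 3.38 and 1.98 in shXBP1, and 3.44 and 0.925 in koCARM1 cells, and how counts were divided between the 2 genes was estimated. PIGB and PIERCE2, whose exons overlap on the opposite strand, averaged 8.21 to 13.0 and 0.876 to 6.24 CPM over the 6 groups.

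RETREG1 (FAM134B; ENSG00000154153, chromosome 5, 16473147 to 16617210), a receptor that curves the ER membrane, had no count in any of the 12 WT and shXBP1 libraries. In koCARM1 cells it was at 7.61, 7.38 and 7.67 CPM with vehicle and at 7.29, 5.71 and 4.53 with tunicamycin. These were 253 counts over the 3 libraries with vehicle and 214 with tunicamycin. Against a limit of 3 counts over a group, the level was at least 104-fold higher than in WT with vehicle and at least 72.2-fold higher with tunicamycin. RETREG1 passed the filter only through the koCARM1 libraries, so it was left out of the counts of members called. Its tunicamycin log2 fold change within koCARM1 cells was −0.34 (SE 0.168, adjusted p = 0.121), which did not pass the threshold. The epithelial marker sums and PAX8 given above separate the same libraries.

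TEX264 (ENSG00000164081, chromosome 3, 51696709 to 51738339), an ER-phagy receptor anchored in the ER membrane, was the member that fell with tunicamycin in each genotype. It was at 13.8 to 15.6 CPM in WT with vehicle and 10.5 to 12.5 with tunicamycin, at 17.5 to 19.6 with vehicle and 13.2 to 17.1 with tunicamycin in koCARM1, and at 13.8 to 16.3 with vehicle and 10.3 to 11.2 with tunicamycin in shXBP1 cells. No treated library overlapped the vehicle libraries of its genotype. The log2 fold changes were −0.40 (SE 0.122, adjusted p = 0.0146), −0.34 (SE 0.112, adjusted p = 0.0208) and −0.51 (SE 0.116, adjusted p = 0.00232). The WT call was lost without replicate 1 of WT with vehicle (−0.36) and without replicate 2 or 3 of WT with tunicamycin (−0.36 and −0.37). That of koCARM1 was lost without replicate 1 or 3 with vehicle (−0.31 each) or with tunicamycin (−0.27 each). Against WT, koCARM1 cells were higher by 0.30 with vehicle (adjusted p = 0.0154) and 0.39 with tunicamycin (adjusted p = 0.0146). These calls were lost without replicate 1 of koCARM1 with vehicle (0.27) and without replicate 2 of koCARM1 with tunicamycin (0.25). RAD54L2 shares exons with TEX264 on the same strand and was counted at a mean of 77.2 to 102 CPM over the 6 groups.

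**Figure D2:**
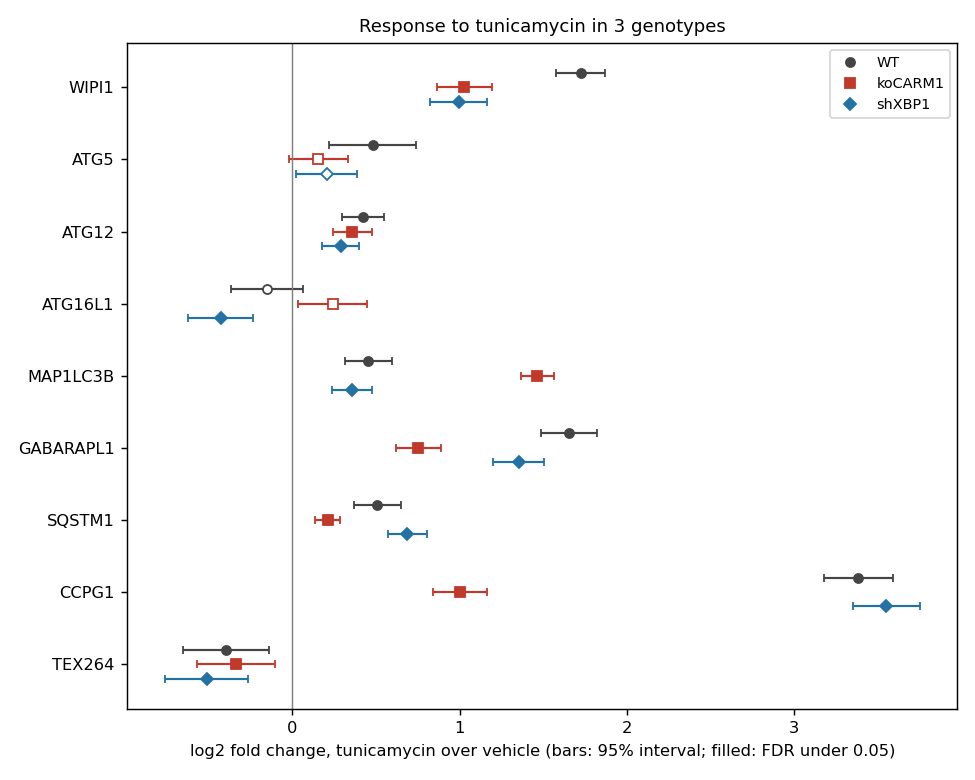
Response to tunicamycin of the 9 members with counts in all genotypes, as log2 fold change over vehicle in WT (circles), koCARM1 (squares) and shXBP1 cells (diamonds). Bars are 95% intervals of the edgeR fit and filled symbols passed an FDR of 5%. CCPG1 reached 3.38 in WT and 1.00 in koCARM1 cells, MAP1LC3B 0.45 and 1.46, and TEX264 lay below 0 in all 3.

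In the test of the difference itself, 5 of 9 members differed from WT in their response in koCARM1 cells, 1 with a larger response (10.5% of all genes tested were called in that direction) and 4 with a smaller one (12.4%), where 22.9% were called in all. MAP1LC3B was the member with the larger response, and CCPG1, GABARAPL1, WIPI1 and SQSTM1 were those with the smaller. In shXBP1 cells 1 of 9 differed, WIPI1, in the lower direction (1.67% of all genes, beside 0.364% in the higher and 2.04% in both). ATF4 rose with tunicamycin in every genotype, from 412 to 429.7 to 1392 to 1510.4 CPM in WT, from 532 to 556 to 1297 to 1341 in koCARM1 and from 415 to 427 to 1410.0 to 1438 in shXBP1 cells. DDIT3 rose from 10.2 to 13.6 to 288 to 297 in WT, from 16.9 to 21.1 to 558 to 585 in koCARM1 and from 12.8 to 16.4 to 313 to 326 in shXBP1 cells. In koCARM1 cells the ATF4 response was smaller than that of WT (interaction −0.52, adjusted p = 9.97e-07) and the DDIT3 response larger (0.39, adjusted p = 0.0187). The summed epithelial markers also moved with tunicamycin, upward in WT and shXBP1 and downward in koCARM1 cells (ranges above). Of the 7 tested, 1 rose in WT (22.0% of all genes), 3 rose in shXBP1 (19.2%) and 3 fell in koCARM1 cells (18.8%). PAX8 and WT1 passed the filter only through the koCARM1 libraries. With 0 to 2 counts in each WT and shXBP1 library they could hardly be called there. In each of these 2 genotypes, 4 of the 7 had a library above 3 counts in both treatments. KRT18 held the largest part of each sum, with means of 260 and 404 CPM in WT with vehicle and tunicamycin. It was at 115 and 174 in shXBP1 and at 1482 and 1195 in koCARM1 cells. The part of these markers in the differences between genotypes was not tested.

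Against WT, 8 of 9 members differed in koCARM1 cells with vehicle, 6 higher (37.5% of all genes tested) and 2 lower (36.9%). With tunicamycin 8 of 9 differed, 4 higher (38.4%) and 4 lower (36.8%). As 74.4% and 75.2% of all genes were called in these comparisons, 8 of 9 is near the background, and the sizes carry the description. SQSTM1, ATG5, MAP1LC3B and TEX264 were higher and ATG12 lower in both treatments. CCPG1 and GABARAPL1 were higher with vehicle and lower with tunicamycin. In shXBP1 cells with vehicle 0 of 9 members passed edgeR's test, where 5.10% of all genes were called, 2.07% higher and 3.03% lower. At an unadjusted p under 0.05 there were 3 (ATG5, MAP1LC3B and ATG16L1), beside 18.5% of all genes, and DESeq2 called 0. With tunicamycin 3 of 9 differed, SQSTM1 higher (6.99% of all genes) and WIPI1 and GABARAPL1 lower (8.55%), where 15.5% of all genes were called.

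**Figure D3:**
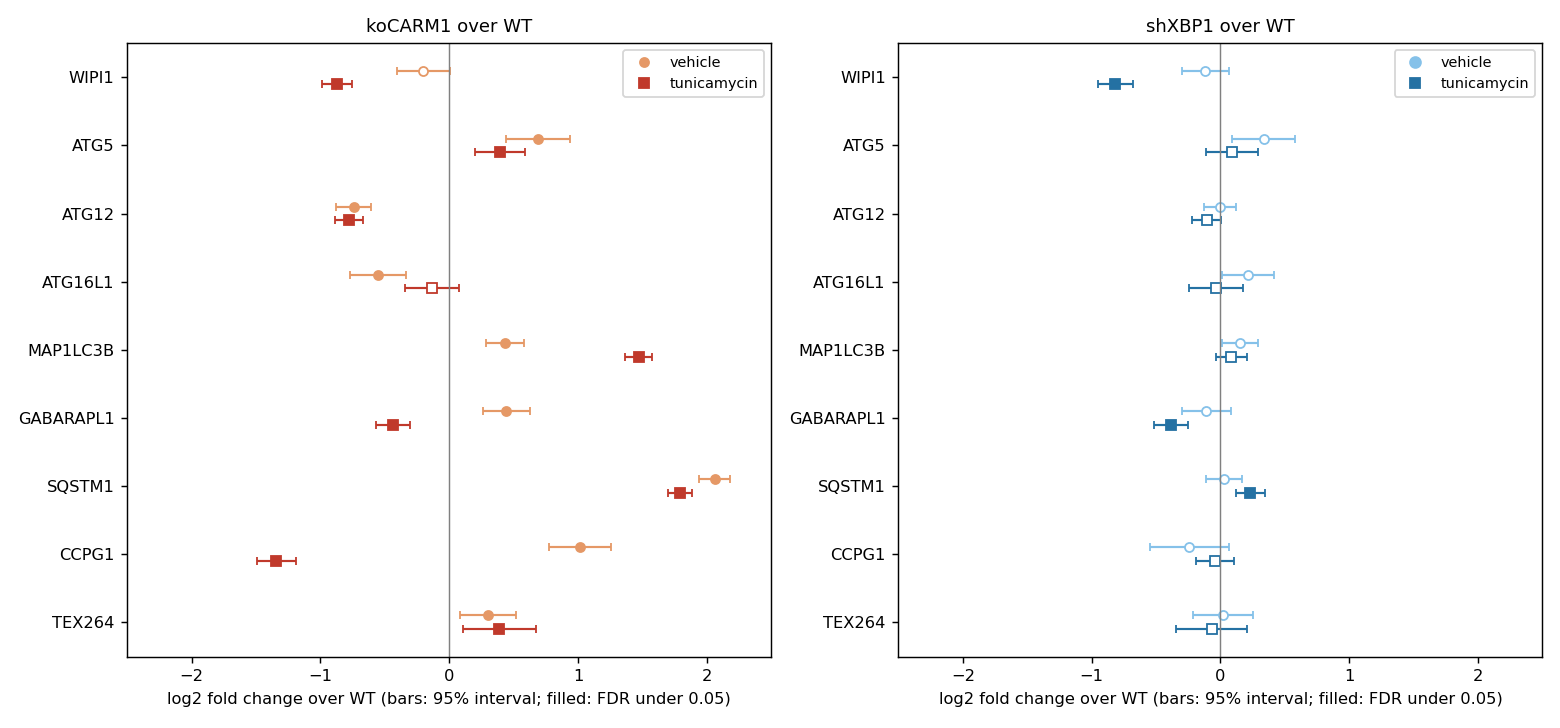
Log2 fold change over WT of the 9 members with counts in all genotypes, for koCARM1 (left) and shXBP1 cells (right), with vehicle (circles) and with tunicamycin (squares). Bars are 95% intervals and filled symbols passed an FDR of 5%. SQSTM1 in koCARM1 lay at 2.06 and 1.79, CCPG1 changed side from 1.01 to −1.34, and in shXBP1 cells WIPI1 moved from −0.12 to −0.82.

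Of 57 other genes of the autophagy pathway, 56 were in the table and 54 were tested. Tunicamycin raised 25 and lowered 6 of them in WT, raised 23 and lowered 7 in koCARM1, and raised 19 and lowered 7 in shXBP1 cells. Of all genes tested 22.0% rose and 19.9% fell in WT, 20.6% and 18.8% in koCARM1, and 19.2% and 19.0% in shXBP1 cells, so that counts of 1 or 2 among the small groups below lie near the background. The median log2 fold change of the 54 was 0.20, 0.18 and 0.18, beside 0 over all genes. Of the 5 genes of the ULK1 complex, which starts autophagy, 4 rose in each genotype, and 1 fell in shXBP1 cells. Of 6 other cargo receptors, 4 rose in WT, 5 in koCARM1 and 4 in shXBP1 cells. Of 6 other ER-phagy receptors, 2 rose and 2 fell in WT, 1 rose and 2 fell in koCARM1, and 1 rose and 2 fell in shXBP1 cells. None of the 3 other ATG8 genes tested rose in any genotype, and 1 fell in each. This was GABARAPL2 in WT and shXBP1 cells. In koCARM1 cells it was GABARAP, with means of 83.5 CPM with vehicle and 68.7 with tunicamycin. MAP1LC3A, the remaining gene, had 0 to 2 counts in each koCARM1 library and could hardly be called there. The fusion machinery rose for 2, 2 and 0 of 6 genes, and 1 fell in each genotype.

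CALCOCO2 (NDP52), a cargo receptor, rose from 34.97, 32.7 and 33.8 to 199, 195 and 203 CPM in WT cells, a log2 fold change of 2.57 (SE 0.0619, adjusted p = 1.41e-14). In koCARM1 cells it went from 71.6, 66.2 and 69.2 to 109, 115 and 125, and its response was smaller than that of WT (interaction −1.80, SE 0.0823, adjusted p = 8.25e-12). As with CCPG1, koCARM1 cells were the highest with vehicle and the lowest with tunicamycin. In shXBP1 cells the change was 2.41 (adjusted p = 4.23e-14). ATG13, a subunit of the ULK1 complex, rose by 1.77 in WT (adjusted p = 1.34e-10), 1.15 in koCARM1 (adjusted p = 1.78e-11) and 1.26 in shXBP1 cells (adjusted p = 8.92e-10). Its shXBP1 response was smaller than that of WT (interaction −0.51, SE 0.118, adjusted p = 0.0255). TMEM41B, an ER scramblase needed for phagophore growth, rose by 1.37 in WT, 0.97 in koCARM1 and 1.16 in shXBP1 cells (adjusted p = 1.15e-10, 5.85e-10 and 8.3e-10). ULK1 itself rose by 1.35, 0.68 and 1.37 in the same order (adjusted p = 5.36e-09, 3.3e-06 and 4.44e-08), and NRBF2, of the class III PI3-kinase complex, by 0.83, 1.00 and 0.56 (adjusted p = 3.66e-05, 1.09e-10 and 5.64e-05).

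RETREG3 and RETREG2, relatives of RETREG1, fell in WT, with log2 fold changes of −0.95 and −0.64 (adjusted p = 0.00011 and 2.02e-05), and in shXBP1 cells, with −0.79 and −0.57 (adjusted p = 0.000287 and 4.56e-05). Both fell in koCARM1 cells as well (−0.39 and −0.17, adjusted p = 0.0143 and 0.0326). GABARAPL2, an ATG8 gene, fell in WT (−0.30, adjusted p = 0.00234) and shXBP1 cells (−0.24, adjusted p = 0.00593), where GABARAPL1 rose, and was at −0.15 in koCARM1 cells (adjusted p = 0.109). VAMP8, a SNARE of the fusion step, fell in WT (−0.30, adjusted p = 0.0208), koCARM1 (−0.52, adjusted p = 9.3e-06) and shXBP1 cells (−0.44, adjusted p = 0.00107). VMP1, an ER scramblase that acts with TMEM41B, rose in WT and shXBP1 cells (0.83 and 0.59, adjusted p = 1.22e-08 and 2.94e-07) and fell in koCARM1 cells (−0.37, adjusted p = 1.96e-07), and its response differed from that of WT by −1.22 (SE 0.0735, adjusted p = 3.37e-10). That of ATG4A, a protease that processes ATG8 proteins, differed by −1.54 (SE 0.202, adjusted p = 1.06e-05). The koCARM1 responses of RETREG2 and RUBCN, a brake on the PI3-kinase complex, differed from those of WT by 0.46 and 0.25 (adjusted p = 0.00323 and 0.035). For RETREG2 this was a smaller fall in koCARM1 than in WT cells (log2 fold changes above). RUBCN averaged 89.5 CPM with vehicle and 76.0 with tunicamycin in WT, and 50.5 and 50.8 in koCARM1 cells.

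Between genotypes, 30 of the 54 other genes were higher and 13 lower in koCARM1 than in WT cells with vehicle (median 0.44, over all genes −0.03), and 29 were higher and 17 lower with tunicamycin (median 0.32, over all genes −0.02). Of all genes tested 37.5% were higher and 36.9% lower with vehicle, and 38.4% and 36.8% with tunicamycin. The log2 difference of the 53 with a fold ran from −4.54 to 5.41 with vehicle, with genes below the level set for naming included. Among these were ULK2, at a mean of 11.0 CPM in WT and 0.476 in koCARM1 cells with vehicle, and the transcription factor MITF, at 0.347 and 15.2. OPTN, a cargo receptor, was higher by 3.00 and 2.74 on the log2 scale with vehicle and tunicamycin (adjusted p = 5.23e-15 and 1.21e-14), and ATL3, an atlastin that serves as an ER-phagy receptor, by 2.00 and 1.87 (adjusted p = 1.64e-13 and 1.13e-12). ATG7, the activating enzyme of both conjugation systems, was higher by 1.83 with vehicle (adjusted p = 1.12e-09), and RETREG2 by 1.63 with tunicamycin (adjusted p = 3.45e-11). ATG10, the enzyme that couples ATG12 to ATG5, was lower, at −2.19 and −2.24 (adjusted p = 1.04e-10 and 3.28e-11). STX17, the SNARE of the autophagosome, was lower, at −1.80 and −1.68 (adjusted p = 2.66e-10 and 1.48e-10), and so was TMEM41B, at −1.42 and −1.79 (adjusted p = 1.49e-10 and 1.19e-12). In shXBP1 cells none was higher than in WT, and 3 were lower with vehicle and 9 with tunicamycin, where 3.03% and 8.55% of all genes were lower and 2.07% and 6.99% higher. TAX1BP1, a cargo receptor, was lower in both treatments, at −0.49 and −0.68 (adjusted p = 0.00448 and 1.07e-06), and OPTN with vehicle, at −0.62 (adjusted p = 0.00238). ATG2B was also lower with vehicle, at −0.81, with 8.74, 12.4 and 9.71 CPM in WT and 5.27, 5.96 and 6.39 in shXBP1 cells. With tunicamycin ATG13 was lower, at −0.50 (adjusted p = 0.000371), and so was the SNARE YKT6, at −0.46 (adjusted p = 5.8e-05), whose response was also smaller than in WT (interaction −0.37, SE 0.0816, adjusted p = 0.0179).

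Across the 18 libraries the members did not follow 1 course. Among the 36 pairs of the 9 members, Pearson's r of log2 CPM ran from −0.846 between ATG12 and TEX264 to 0.962 between GABARAPL1 and CCPG1. The libraries are 6 groups of 3, so that r describes the group levels. Among 9515 other genes at a mean log2 CPM of at least 3, the one most like CCPG1 was CALCOCO2 (r = 0.991), the one most like WIPI1 was SSR2, an ER translocon subunit (0.987), and the one most like GABARAPL1 was SARAF, an ER calcium-entry regulator (0.992). For SQSTM1 it was the proteasome assembly factor gene PSMD9 (0.996), for ATG12 CEP95 (0.993), for MAP1LC3B the adhesion gene TES (0.981), for ATG5 EIF3E (0.949), for TEX264 SLC25A3 (0.935) and for ATG16L1 CBX6 (0.923).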

How the data were processed

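Total RNA of 18 A1847 samples was sequenced from the 3′ ends of mRNA by single-end sequencing of 75 nt. Alignment to hg19 was done by the authors with bowtie2, and the deposited table holds RSEM expected counts for Ensembl genes (RSEM 1.2.3 in the submitters' processing notes, another version in the methods), whole numbers that were not normalized. DESeq2 is also named in those notes. All 18 columns were mapped to samples by their labels, and 0 were left over. Dose and time are from the study's methods. The members and gene lists were chosen with earlier results of these data known.

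Symbols were found for 43484 genes and GRCh37 positions for 55501 (GENCODE annotation). The software was edgeR 4.0.16, DESeq2 1.42.0 and limma 3.58.1 under R 4.3.3. Genes passed filterByExpr with a minimum count of 10 over all groups. TMM factors, dispersions and quasi-likelihood F tests came from the libraries compared, with Benjamini-Hochberg adjustment over all 17317 genes and calls at 0.05. SE was taken as |log2 fold change| over √F. CPM used TMM factors over all libraries, and log2 CPM a prior count of 2. Between replicates, chi-square per degree of freedom was 1.84 to 6.89 over 18 pairs, so no libraries were merged. With 3 libraries against 3 an exact permutation test cannot go below p = 0.1, and none is given. Scripts were tested on simulated data.

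All 10 members were named in every comparison. Other autophagy genes were named by up to 3 called genes with the highest and 3 with the lowest log2 fold change per comparison, at a mean log2 CPM of at least 3 and with groups that did not overlap (no overlap condition for interactions). ULK2, MITF and ATG2B, below that level in the comparison given, were named besides. The alternatives are those of the section on processing.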

Additional observations from a re-analysis of the deposited data

Results flagged for a closer look

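The response to tunicamycin differed between genotypes for 5 members in koCARM1 cells and for 1 in shXBP1 cells, each in the interaction term of edgeR's quasi-likelihood fit over 4 groups of 3 libraries. For CCPG1 the koCARM1 response minus that of WT was −2.40 on the log2 scale (SE 0.136, adjusted p = 1.71e-10). It was 0.99 for MAP1LC3B (SE 0.0833, adjusted p = 2.93e-08), −0.92 for GABARAPL1 (SE 0.101, adjusted p = 1.02e-06), −0.72 for WIPI1 (SE 0.110, adjusted p = 6.66e-05) and −0.32 for SQSTM1 (SE 0.0693, adjusted p = 0.0021). In shXBP1 cells the difference for WIPI1 was −0.72 (SE 0.106, adjusted p = 0.000561). Both interactions use the same WT libraries. Since the koCARM1 libraries stood apart from all others in lineage markers, the effect of targeting CARM1 and any other difference between koCARM1 and WT cells cannot be told apart.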

How the results depend on the processing

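The alternatives were a replicate block, DESeq2 or its size factors, the filter dropped or tightened to 10 counts per library, a joint fit of all libraries, a 1.5-fold minimum besides the FDR, and the omission of single libraries. Of 612 alternative values of member changes that were called, all 612 kept their direction and 601 passed the threshold. Asking for 1.5-fold left 3 members called with tunicamycin in WT, 4 in koCARM1 and 4 in shXBP1 cells, 4 and 5 between koCARM1 and WT with vehicle and tunicamycin, and 1 between shXBP1 and WT with tunicamycin. ATG5 was the 1 member called between shXBP1 and WT with vehicle without a filter and in the joint fit, and leaving out single libraries gave 0 to 1. TEX264 with tunicamycin in koCARM1 cells missed the threshold in DESeq2 (−0.34, adjusted p = 0.0516).

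Of 468 values of uncalled changes, 13 changed sign, all near 0. ATG12 between shXBP1 and WT with vehicle was 0.000622 without a filter and 0.00387 in the joint fit. Leaving out single libraries gave −0.0328 to 0.0325 for ATG12, −0.0160 to 0.0771 for SQSTM1 and −0.0415 to 0.0823 for TEX264 in that comparison. With tunicamycin it gave −0.105 to 0.0491 for CCPG1, −0.113 to 0.0133 for TEX264 and −0.0751 to 0.00859 for ATG16L1. In the koCARM1 interaction it gave −0.107 to 0.0164 for ATG12 and −0.0963 to 0.203 for TEX264.

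The replicate block changed 1 call, WIPI1 between koCARM1 and WT with vehicle (−0.20, adjusted p = 0.0497), for 9 members called instead of 8. Deviations of same-numbered libraries correlated at −0.213 to 0.133 over the 21 pairs of groups compared directly, and at −0.252 to 0.157 with the other pairs of the interactions included. No pairing by number was thus seen, and whether same-numbered samples were handled together cannot be told from these values. The causes of these changes were not tested.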
